A study of Caenorhabditis elegans with 48 samples.

Results

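The genes described here are the 7 fatty acid desaturase genes of Caenorhabditis elegans, fat-1 to fat-7, and the 2 genes that build the fatty acids they act on, pod-2 and fasn-1. They were chosen by name as a pathway, by a rule that uses no measured value but with earlier results of these data known, and are 9 of the 13129 genes listed in at least 1 of the 4 deposited strain tables. All 9 were listed in every table and passed the filter of a mean of 1 CPM or more in every strain. CPM is the reads of a gene scaled to the library size after the authors' normalisation, which differs from the read total.

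In this pathway pod-2 encodes acetyl-CoA carboxylase, which makes malonyl-CoA, and fasn-1 encodes fatty acid synthase, which extends it to saturated palmitic acid. The delta-9 desaturases then place the first double bond: FAT-5 acts mainly on palmitic acid, while FAT-6 and FAT-7 act on stearic acid to give oleic acid. FAT-2, FAT-3, FAT-4 and FAT-1 add further double bonds in turn and give the worm its polyunsaturated fatty acids. Desaturation keeps membranes fluid, and in the worm the delta-9 step, fat-7 above all, is known for its response to temperature.

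The study measured polyadenylated RNA of whole young adult worms in 48 libraries, 16 groups of 3. CA1200 carries the unc-119(ed3) allele and the transgene ieSi57, in which the eft-3 promoter drives the plant F-box protein TIR1 in the soma. CA1199 carries unc-119(ed3) and ieSi38, in which the sun-1 promoter drives TIR1 in the germline. JTL611 and JTL621 are their respective counterparts with an hsf-1::aid::gfp allele, so that auxin, through TIR1, directs degradation of the heat shock factor HSF-1 in the soma or in the germline. All 4 strains therefore carry unc-119(ed3), a Cbr-unc-119(+) rescue and TIR1, and CA1200 and CA1199 have untagged HSF-1. Synchronized worms grew for 51 h, spent 2 h on ethanol or auxin plates, and were collected at once or after 30 min at 34 °C; the groups without heat shock are called unheated or 20 °C here. Whole worms were used, so fewer cells of a type and less RNA per cell cannot be told apart.

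The libraries held 9000611 to 24025791 reads on listed genes, with a median of 16986626. Ribosomal RNA made up 3.89% to 34.5% of these reads, with a median of 8.26%. The library with the fewest reads, replicate 2 of JTL621 heated on auxin, had the highest share. In JTL611 the share was higher in heated than in unheated libraries on both plates, without overlap, while in the other strains the ranges overlapped. Its part in the results was not tested. The heat labels were checked with hsp-70, an inducible chaperone gene, which averaged 797 CPM in heated and 1.64 CPM in unheated CA1200 worms on ethanol. In JTL611 heated on auxin it averaged 1.33 CPM, against 294 CPM in JTL611 heated on ethanol. That ethanol value is itself below the 797 CPM of heated CA1200. Auxin against ethanol in heated JTL611 therefore starts from a lower hsp-70 response than that of the untagged strain. The tag acts on the HSF-1 protein, so hsf-1 mRNA does not check it. In 4 of the 48 libraries, genes with at least 6000 bp of exons stood low: their median lay more than 0.4 below the strain mean on the log2 scale, at -0.72 in replicate 2 of CA1199 heated on ethanol, -0.66 in replicate 1 of JTL611 heated on ethanol, -0.50 in replicate 2 of JTL621 heated on auxin and -0.42 in replicate 2 of unheated CA1200 on ethanol. The next lowest library was at -0.16. This touches pod-2 and fasn-1, whose exons span 6855 and 8451 bp, and beside each of their called results, and the auxin results named below, the value without these libraries is given where the comparison includes one.

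The 9 genes lie on 4 chromosomes of the WBcel235 assembly. On chromosome IV, fat-4 (WBGene00001396) at 9799429 to 9802226 and fat-3 (WBGene00001395) at 9803023 to 9806119 lie on the plus strand with 796 bp between them, and fat-1 (WBGene00001393) at 13315644 to 13318811 and fat-2 (WBGene00001394) at 13323873 to 13326395 lie on the plus strand 5061 bp apart. The remaining gene of that chromosome, fat-6 (WBGene00001398), is at 11913692 to 11915687 on the minus strand. Its close relative fat-7 (WBGene00001399) is on chromosome V at 7151353 to 7153146 on the minus strand. On the same chromosome fat-5 (WBGene00001397) is at 17725004 to 17726818 on the plus strand and overlaps twk-42 and a noncoding gene on the minus strand. On chromosome II pod-2 (WBGene00004076) is at 1136785 to 1152705 on the plus strand and overlaps W09B6.4 on the minus strand. On chromosome I fasn-1 (WBGene00009342) is at 8975366 to 8986540 on the minus strand. The libraries kept strand, but the strand setting of the counting is not given in the sources used here, so reads of fat-5 and pod-2 could include reads of their overlapping partners. The counting of reads shared by the similar coding sequences of fat-6 and fat-7 is likewise not given.

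By group means per kilobase of exon, fat-2 was the most abundant of the 9 transcripts in all 16 groups and fat-5 the least abundant in all 16. The libraries of fat-2 overlapped those of fat-6 in 4 of the 8 heated groups and in 0 of the 8 unheated ones. Group means of fat-2, the desaturase that acts on oleic acid, ranged from 258 to 372 CPM per kb. Those of fat-5 ranged from 6.46 to 14 CPM per kb. Next below fat-2 were fat-6 and fat-1, with fat-6 ahead in 14 groups and fat-1 in 2. These neighbours did not differ beyond their spread in most groups, since their 3 libraries overlapped in 11 of 16. Next came fat-4 and pod-2, which overlapped in 14 of 16 groups. The levels of fasn-1, from 26.6 to 42.8 CPM per kb, lay below fat-3 in every library of all 16 groups and above fat-5 likewise. Levels per kb in different strains come from tables normalised separately.

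The place of fat-7 in this order changed with temperature. Its mean per kb was above that of fat-3, the delta-6 desaturase, in 8 of 8 unheated groups and below it in 7 of 8 heated groups. The exception was JTL611 heated on auxin. The ranges of the 2 genes overlapped in 4 of the unheated and 6 of the heated groups.

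**Figure D1:**
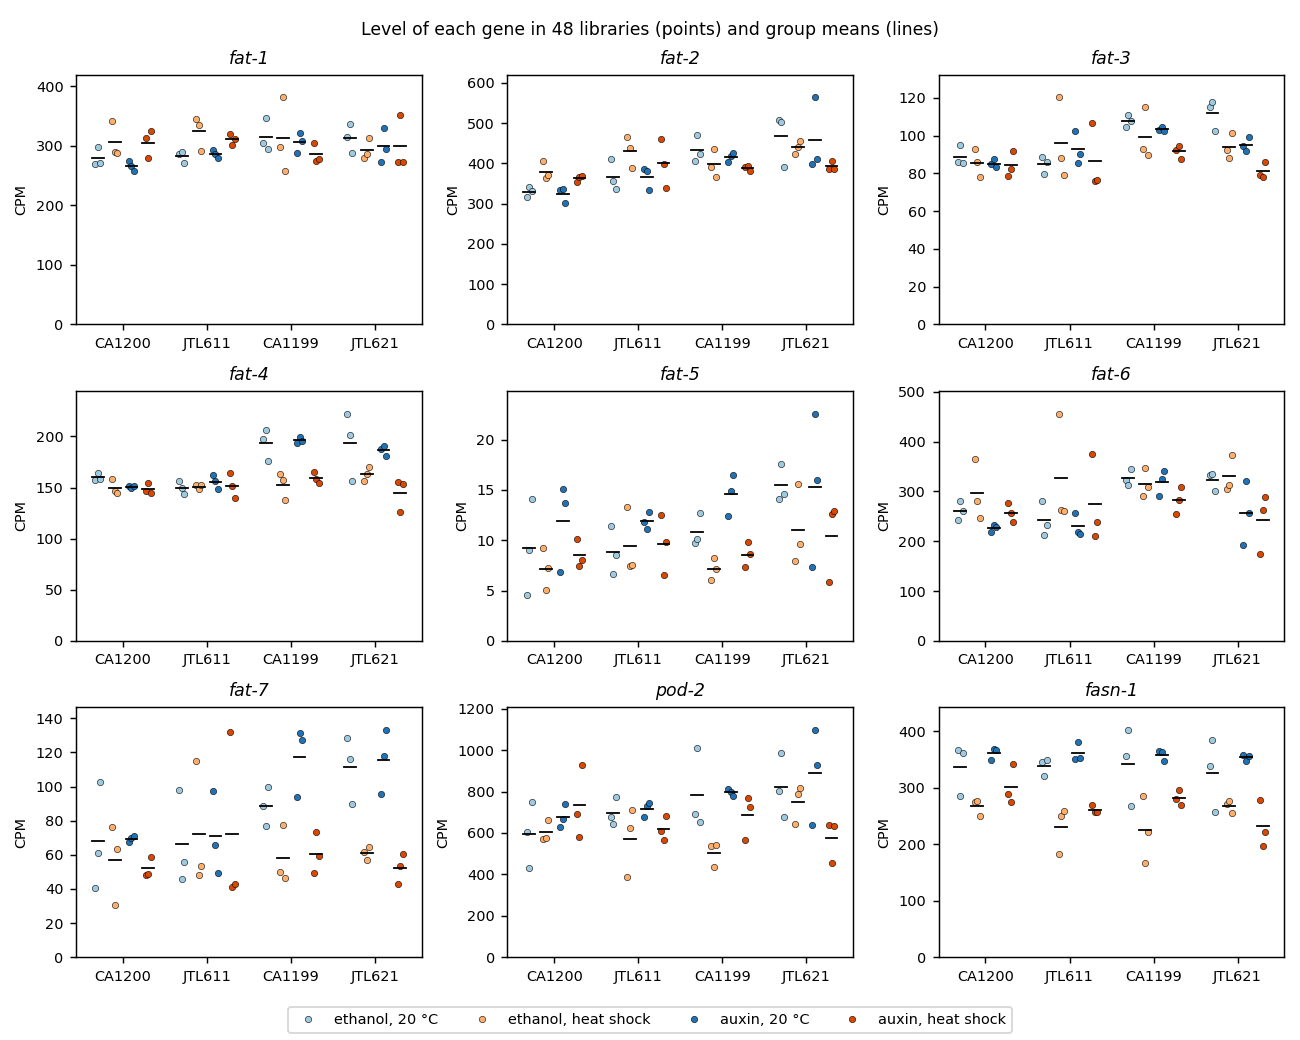
Level of each of the 9 genes in CPM (vertical axis, from 0) in the 48 libraries, by strain, plate and temperature; points are libraries and lines are means of 3. In fasn-1 the heated group means lie below the unheated ones in every strain, and in fat-7 the heated points of CA1199 and JTL621 lie mostly below the unheated ones.

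Heat shock was examined first, for each strain and plate. In all, fasn-1 fell in 5 of 8 comparisons and in all 4 strains, and fat-7 fell in 4, all in the germline TIR1 strains. In CA1199 fat-4 and fat-5 fell on both plates and pod-2 fell on ethanol. None of the 9 passed the test as higher in any of the 8 comparisons. The change with the lowest log2 value was that of fat-7 in JTL621 on auxin, whose mean went from 116 ± 18.8 to 52.3 ± 8.86 CPM (SD, n = 3). All tests of one strain used limma on log2(CPM + 1), so fold changes are on that scale, with Benjamini-Hochberg adjustment over all genes tested.

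In JTL621 on auxin, fat-7 was at 95.8, 118 and 133 CPM without heat and at 42.8, 53.6 and 60.4 CPM with it. All 3 heated libraries were below all 3 unheated ones. The log2 change was -1.13 ± 0.16 (SE, n = 3 per group; limma adjusted p = 0.00056). On ethanol plates JTL621 had 129, 116 and 90.0 CPM of fat-7 without heat and 61.5, 56.9 and 64.7 CPM with it, again with no overlap, a log2 change of -0.84 ± 0.16 (limma adjusted p = 0.00508).

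The untagged germline TIR1 strain CA1199 gave the same direction. On auxin its fat-7 libraries held 93.8, 131 and 127 CPM unheated and 49, 73.5 and 59.2 CPM heated, with no overlap, and the log2 change was -0.95 ± 0.20 (limma adjusted p = 0.00486). On ethanol they held 88.4, 77.1 and 99.8 CPM unheated and 49.7, 77.7 and 46.1 CPM heated. Here 1 heated library was above the lowest unheated one, and the log2 change was -0.64 ± 0.20 (limma adjusted p = 0.0384). That call ended when any of 4 single libraries was left out, with adjusted p up to 0.132, whereas the other 3 fat-7 calls held without every single library.

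In the soma TIR1 strains fat-7 passed the test in no heat comparison. It varied more between libraries than in the germline TIR1 strains, except in CA1200 on auxin. There fat-7 spanned 67.5 to 71.1 CPM unheated and 48.4 to 59 CPM heated, without overlap. With only the libraries compared in the fit, that change passed at -0.41 (limma adjusted p = 0.015). Unheated CA1200 on ethanol spanned 40.6 to 102 CPM and heated CA1200 spanned 30.5 to 76.4 CPM. JTL611 on auxin spanned 49.5 to 97.4 CPM unheated, and heated it had 1 library at 132 CPM and the others at 41.2 and 42.6 CPM. Replicate 1 was the highest of the 3 in all 4 groups of JTL611. On ethanol, where replicate 1 of the heated group is also low in long genes, the fat-7 change was 0.07 with it and -0.31 without it, with no call in either. The 95% intervals of the log2 change ran from -0.92 to 0.41 in CA1200 on ethanol, from -1.16 to 0.87 in JTL611 on auxin, from -1.08 to 0.25 in CA1200 on auxin and from -0.94 to 1.09 in JTL611 on ethanol. The JTL621 change on ethanol, -0.84, lies within all 4 intervals.

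The synthase gene fasn-1 had a lower mean with heat in all 8 comparisons, with log2 changes from -0.62 to -0.27, and passed the test in 5. In JTL611 on ethanol it was at 346, 322 and 350 CPM unheated and 183, 250 and 259 CPM heated. Every heated library was below every unheated one, and the log2 change was -0.57 ± 0.11 (limma adjusted p = 0.00918; -0.41 and 0.00168 without the library low in long genes). On auxin the same strain went from 351, 382 and 353 CPM to 269, 257 and 257 CPM, without overlap, a change of -0.47 ± 0.11 (limma adjusted p = 0.0238). Leaving out any 1 of those 6 libraries ended that call, with adjusted p from 0.0559 to 0.104.

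In JTL621 on auxin fasn-1 fell from 358, 348 and 356 CPM to 278, 196 and 222 CPM, without overlap (-0.62 ± 0.15, limma adjusted p = 0.0129; -0.51 and 0.0389 without the library low in long genes). In CA1199 on ethanol it went from 357, 403 and 268 CPM to 285, 167 and 222 CPM, where the groups overlapped (-0.62 ± 0.17, limma adjusted p = 0.0211), and without the low library the change was -0.42 with adjusted p = 0.0666. That call also ended without replicate 1 or 2 of the unheated group, with adjusted p up to 0.0958. In CA1200 on ethanol it went from 366, 286 and 361 CPM to 276, 277 and 251 CPM, without overlap (-0.33 ± 0.10, limma adjusted p = 0.0429; -0.44 and 0.00663 without the low library). Leaving out any 1 of the other 5 libraries ended that call, with adjusted p from 0.0775 to 0.159. On auxin CA1200 gave -0.27 ± 0.10 (limma adjusted p = 0.073), which passed with the replicate number as a block, where the adjusted p was 0.0467. It also passed under quantile normalisation (-0.39, limma adjusted p = 0.00518). In CA1199 on auxin fasn-1 was not called, but with only the libraries compared in the fit it passed at -0.35 (limma adjusted p = 0.00219).

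The carboxylase gene pod-2 passed the test in 1 comparison. In CA1199 on ethanol it went from 690, 1010 and 651 CPM to 535, 438 and 542 CPM, without overlap, a log2 change of -0.61 ± 0.16 (limma adjusted p = 0.0165). Without the low heated library it was -0.51 with adjusted p = 0.0554, and without replicate 2 of the unheated group -0.41 with 0.0667. In that comparison the 213 genes with at least 6000 bp of exons had a median change of -0.20, against 0.02 for the other genes. The part of this shift in the pod-2 and fasn-1 values was not tested beyond the values given here and a correction for gene length. Under that correction the calls of pod-2 in CA1199 on ethanol (-0.35, limma adjusted p = 0.0624) and fasn-1 in JTL621 on auxin (-0.28, 0.0653) ended. The same correction added calls of fasn-1 on auxin in CA1200 (-0.41, limma adjusted p = 0.000202) and in CA1199 (-0.44, 0.00162).

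**Figure D2:**
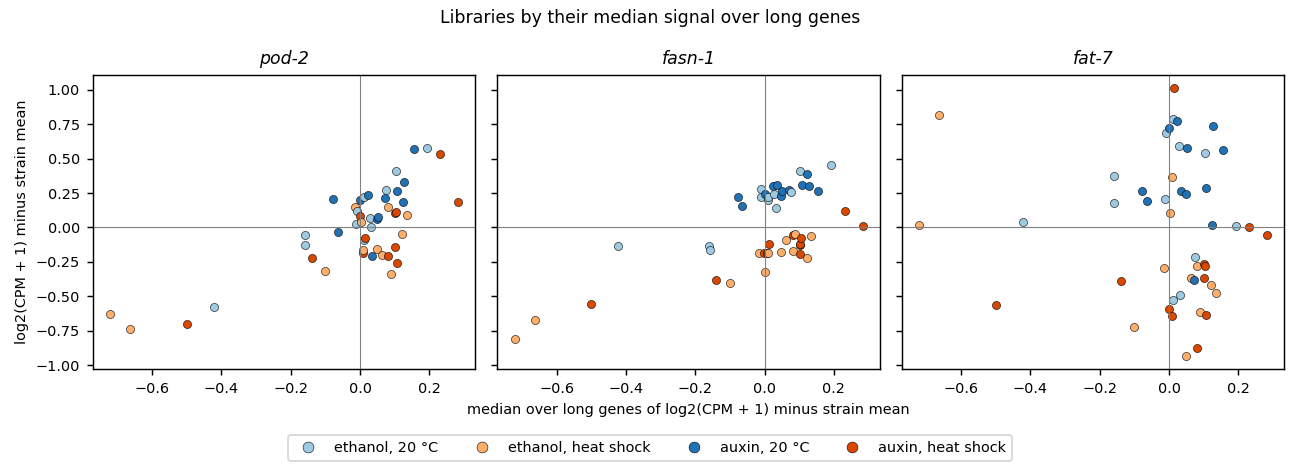
Each point is 1 of the 48 libraries; the horizontal axis is the median over genes with at least 6000 bp of exons, and the vertical axis the level of pod-2, fasn-1 or fat-7, both as log2(CPM + 1) minus the strain mean. The 4 libraries with the lowest long-gene medians are also low in pod-2, with r = 0.756 over all 48 libraries, while fasn-1 has r = 0.657 and fat-7 r = -0.10.

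The shorter genes fat-4 and fat-5 also fell in CA1199. The delta-5 desaturase gene fat-4 went from 197, 206 and 176 CPM to 163, 157 and 137 CPM on ethanol, without overlap (-0.34 ± 0.09, limma adjusted p = 0.0136). On auxin it went from 194, 199 and 195 CPM to 165, 159 and 155 CPM, without overlap (-0.30 ± 0.09, limma adjusted p = 0.0303). The palmitoyl desaturase gene fat-5 was low throughout and went from 9.69, 10.1 and 12.7 CPM to 6.06, 8.22 and 7.13 CPM on ethanol (-0.54 ± 0.15, limma adjusted p = 0.0256). On auxin it went from 12.4, 14.9 and 16.4 CPM to 7.29, 9.79 and 8.59 CPM (-0.70 ± 0.15, limma adjusted p = 0.00653). In both fat-5 comparisons the groups did not overlap. The fat-4 call ended without replicate 3 of the heated or replicate 2 of the unheated group on ethanol and without any 1 of the 6 libraries on auxin, with adjusted p up to 0.117. The fat-5 call on ethanol ended without heated replicate 1 or 3 or unheated replicate 3, with adjusted p up to 0.0903, and under quantile normalisation (-0.39, adjusted p = 0.117). The fat-5 call on auxin held without each library. With only the libraries compared in the fit, on ethanol the calls of fat-4 and fat-5 in CA1199 (adjusted p = 0.113 and 0.0654) and of fasn-1 in CA1200, JTL611 and CA1199 (0.0515, 0.107 and 0.0735) ended, as did that of fasn-1 in JTL621 on auxin (0.0532).

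The remaining desaturase genes, fat-1, fat-2, fat-3 and fat-6, passed the test in none of the 8 heat comparisons, although fat-3 in CA1199 on ethanol had -0.23 with adjusted p = 0.0352 without the library low in long genes. The omega-3 desaturase gene fat-1 changed by -0.10 to 0.19 on the log2 scale. In CA1200 on auxin and in JTL611 on both plates, all heated fat-1 libraries were above all unheated ones. Under gene length correction fat-1 was called higher in CA1200 on auxin (0.22, limma adjusted p = 0.044). So was fat-2 in CA1200 on ethanol (limma adjusted p = 0.0185) and on auxin (0.0382). The change of fat-2 was 0.20 ± 0.06 in CA1200 on ethanol, where the heated libraries at 406, 363 and 370 CPM were all above the unheated ones at 316, 340 and 332 CPM (limma adjusted p = 0.0505; 0.0437 with the replicate block). In JTL611 on ethanol it was 0.23 ± 0.12 (limma adjusted p = 0.32; 0.0497 with the replicate block). In fat-6, which changed by -0.18 to 0.39, replicate 1 stood above the others in each heated JTL611 group, at 456 CPM against 263 and 262 CPM on ethanol and at 375 CPM against 210 and 239 CPM on auxin.

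These counts are read against all genes tested. On ethanol, 1 of 9 genes was lower in CA1200, where 7.51% of all genes tested were called lower, 1 in JTL611 against 4.17%, 5 in CA1199 against 14.4% and 1 in JTL621 against 7.43%. On auxin, 0 of 9 were lower in CA1200 against 9.86% (3 at an unadjusted p under 0.05 in limma, and 0 adjusted in limma-voom), 1 in JTL611 against 5.4%, 3 in CA1199 against 12.5% and 2 in JTL621 against 11.3%. With 9 genes, 1 call is a share near the background in CA1200, JTL611 and JTL621 on ethanol and in JTL611 on auxin.

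**Figure D3:**
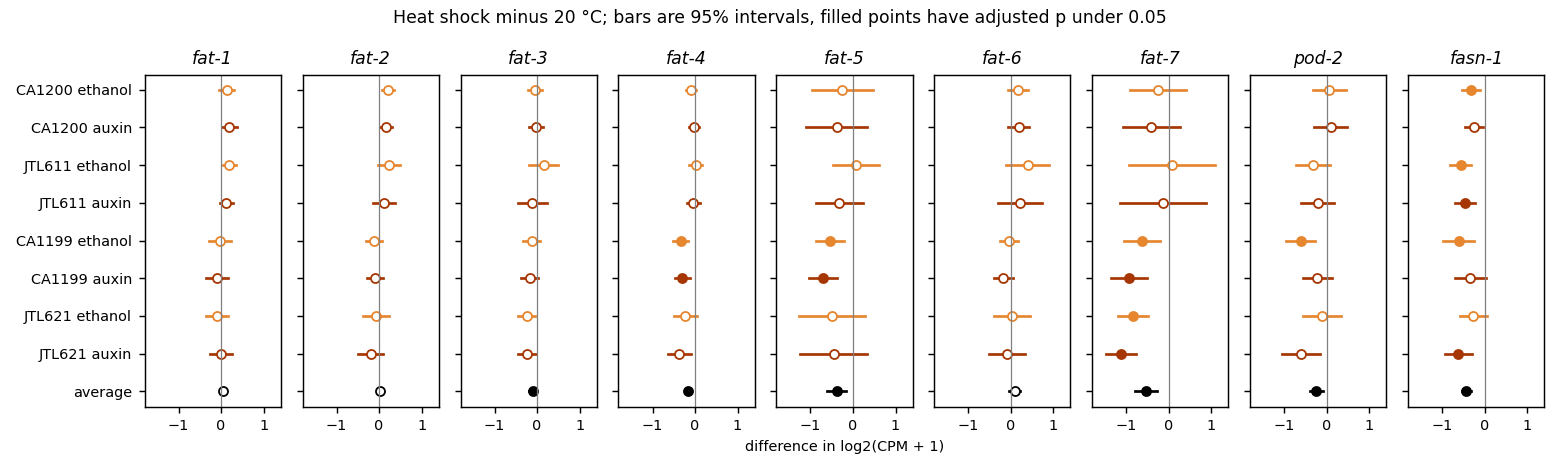
Heat shock minus 20 °C in log2(CPM + 1) for each gene in each strain and plate, with 95% intervals; filled points have adjusted p under 0.05 and the black point is the average over strains and plates. The filled points are in fasn-1 for all 4 strains, in fat-7 for CA1199 and JTL621, and in fat-4, fat-5 and pod-2 for CA1199.

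Averaged over the 4 strains and both plates in 1 fit of 48 libraries, a comparison added after seeing the data, 6 of the 9 genes were lower with heat, where 29.4% of 11673 genes were. The averages were -0.54 ± 0.12 for fat-7 (limma adjusted p = 0.000337), -0.44 ± 0.05 for fasn-1 (limma adjusted p = 3.86e-09) and -0.39 ± 0.11 for fat-5 (limma adjusted p = 0.00429). Smaller falls were found in pod-2 at -0.25 ± 0.07, in fat-4 at -0.17 ± 0.03 and in fat-3 at -0.10 ± 0.04, the last with limma adjusted p = 0.0272, which was lost under gene length correction (0.138) and without replicate 3 of JTL611 heated on ethanol (0.0511). The averages of fat-1, fat-2 and fat-6 were 0.05, 0.03 and 0.08, with 95% intervals that stayed between -0.05 and 0.22. Under gene length correction fat-1 was called higher, at 0.09 with adjusted p = 0.0227. Without the 4 libraries low in long genes the same 6 genes were called, with fasn-1 at -0.39 and pod-2 at -0.21.

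The delta-9 desaturases fat-6 and fat-7 share a substrate. As a share of their summed CPM per kb, fat-7 made up 20.6% to 32.2% in the means of the 8 unheated groups and 15.7% to 19.7% in those of the 8 heated groups. In JTL621 on auxin the share was 34.1%, 27.6% and 34.9% unheated and 20.3%, 17.4% and 17.8% heated. In CA1200 on ethanol and in JTL611 on both plates the libraries overlapped. CA1200 on ethanol had 14.8%, 18.3% and 28.9% unheated and 17.8%, 10.1% and 21.1% heated. JTL611 on auxin had 28.3%, 23.8% and 19.2% unheated and 26.7%, 16.9% and 15.6% heated. The shares are a description and were not tested.

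**Figure D4:**
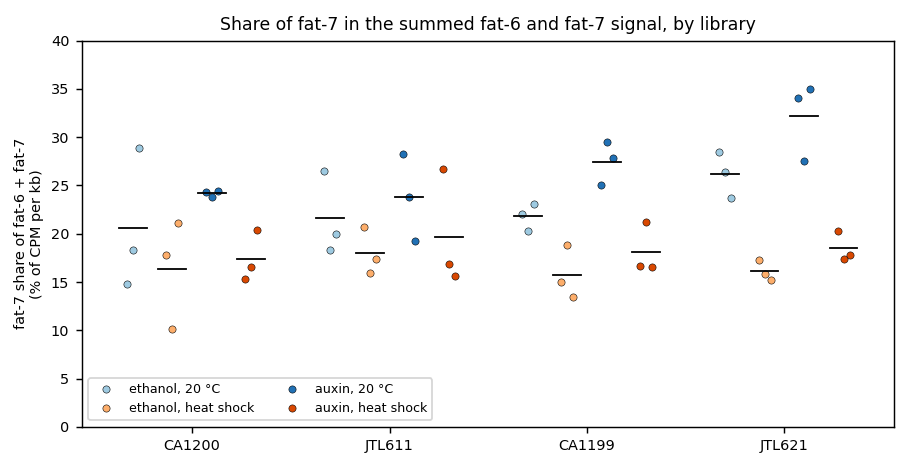
Share of fat-7 in the summed CPM per kb of fat-6 and fat-7 (vertical axis, percent, from 0) in the 48 libraries, by strain, plate and temperature, with group means of 3 as lines. The heated means, 15.7% to 19.7%, lie below the unheated means, 20.6% to 32.2%.

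The size of the heat response was then compared between strains. Between single strains no difference passed the test for any of the 9 genes. For JTL611 minus CA1200 the background of called genes was 0.0764% for heat on ethanol and 0.39% for heat on auxin. For JTL621 minus CA1199 it was 0% for both, and for CA1199 minus CA1200 it was 0% for both. At an unadjusted p under 0.05, limma and limma-voom each had 0 of 9 genes in the first 4 of these comparisons and 3 of 9 in each of the last 2.

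In the joint fit of 48 libraries, also added after seeing the data, the heat response of the germline TIR1 strains minus that of the soma TIR1 strains was -0.30 ± 0.08 for fat-2 (limma adjusted p = 0.0151) and -0.27 ± 0.06 for fat-4 (limma adjusted p = 0.00631), with 5.88% of genes called. For fat-7 it was -0.71 ± 0.25 (limma adjusted p = 0.0788). With the replicate number as a block 5 genes passed, fat-1 with adjusted p = 0.0321, fat-6 with 0.0340 and fat-7 with 0.00943 in addition. The fasn-1 response differed by -0.06, with a 95% interval from -0.27 to 0.15. The strains of the 2 kinds also carry different sample number blocks in the labels, and transgene and block cannot be told apart.

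Auxin was compared with ethanol to ask whether losing HSF-1 alters these genes. None of the 9 passed the test in any strain at either temperature. Loss of HSF-1 has a readout here only in JTL611. In heated JTL621, hsp-70 averaged 588 CPM on auxin and 607 CPM on ethanol, so germline loss was not checked by it. The JTL621 results therefore describe auxin in that strain, with loss of HSF-1 not shown. In JTL611 heated on auxin, where hsp-70 averaged 1.33 CPM, the 9 log2 changes ran from -0.24 for fat-6 to 0.19 for fasn-1, with 0 of 9 called (0 at an unadjusted p under 0.05 in limma, 0 adjusted in limma-voom) against 0.325% of all genes. Without replicate 1 of the heated ethanol group, which was low in long genes, fat-6 was at 0.02, fasn-1 at 0.04, fat-7 at 0.28 and pod-2 at -0.11, again with no call. With all libraries, the 95% intervals ran from -0.21 to 0.10 for fat-1, from -0.15 to 0.16 for fat-4 and from -0.05 to 0.44 for fasn-1, but from -1.13 to 0.90 for fat-7.

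In JTL621 heated on auxin the changes ran from -0.48 for fat-6 to 0.02 for fat-1, with 0 of 9 called against 0.172%. There fat-6 was at 174, 263 and 288 CPM on auxin and at 305, 313 and 373 CPM on ethanol, without overlap (-0.48 ± 0.20, limma adjusted p = 0.836; -0.55 without the heated auxin library low in long genes). In the untagged strains heated on auxin, 0 of 9 were called in CA1200 against 0.0589% and 0 of 9 in CA1199 against 0.246%, where pod-2 had the largest change, 0.44 ± 0.16 (limma adjusted p = 0.769; 0.34 without the heated ethanol library low in long genes). At an unadjusted p under 0.05 limma had 2 of 9 genes in JTL621, 0 in CA1200 and 1 in CA1199, and limma-voom called 0 in each after adjustment.

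Without heat, 0 of 9 genes were called for auxin in CA1200 (0.177% of all genes), JTL611 (0.0916%), CA1199 (0.213%) and JTL621 (0.172%). At an unadjusted p under 0.05 limma had 0, 0, 1 and 1 of 9 in that order, and limma-voom called 0 in each after adjustment. The changes of fat-5 at 20 °C were 0.42 in JTL611, with a 95% interval from -0.13 to 0.97, 0.38 in CA1200, 0.40 in CA1199 and -0.13 in JTL621.

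The interaction of auxin and heat, the test of whether auxin changed the heat response within a strain, called 0 of 9 genes in CA1200 (0% of all genes), JTL611 (0.2%), CA1199 (0%) and JTL621 (0%). The difference in the auxin effect between tagged and untagged strains with heat called 0 of 9 for JTL611 minus CA1200 (0.229%), for JTL621 minus CA1199 (0%) and for CA1199 minus CA1200 (0%). Without heat it called 0 of 9 for the same pairs (0.00849%, 0% and 0%). In these 10 tests limma had 2 of 9 genes at an unadjusted p under 0.05 for JTL621 minus CA1199 with heat, pod-2 at -0.82 and fasn-1 at -0.58, and 0 in the others, and limma-voom called 0 after adjustment. In that comparison the long genes had a median of -0.65, and without the libraries low in long genes pod-2 was at -0.56 and fasn-1 at -0.27.

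Averaged over strains in the joint fit, auxin called 0 of 9 genes with heat (0.788% of all genes) and 0 of 9 at 20 °C (0.728%), with 2 and 0 of 9 at an unadjusted p under 0.05 in limma and 0 adjusted in limma-voom. With heat fat-6 was at -0.27 ± 0.09 (limma adjusted p = 0.436; 0.0436 with the replicate block; -0.20 and 0.717 without the libraries low in long genes). In the authors' deposited table, which compares auxin with ethanol in heated worms, no gene of the 9 had a false discovery rate under 0.05 in any strain, and the lowest was 0.686, for pod-2 in CA1199. Of all genes in the authors' deposited table, the share with a rate under 0.05 was 0.823% for JTL611, 0.434% for CA1200, 0.328% for JTL621 and 0.471% for CA1199.

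**Figure D5:**
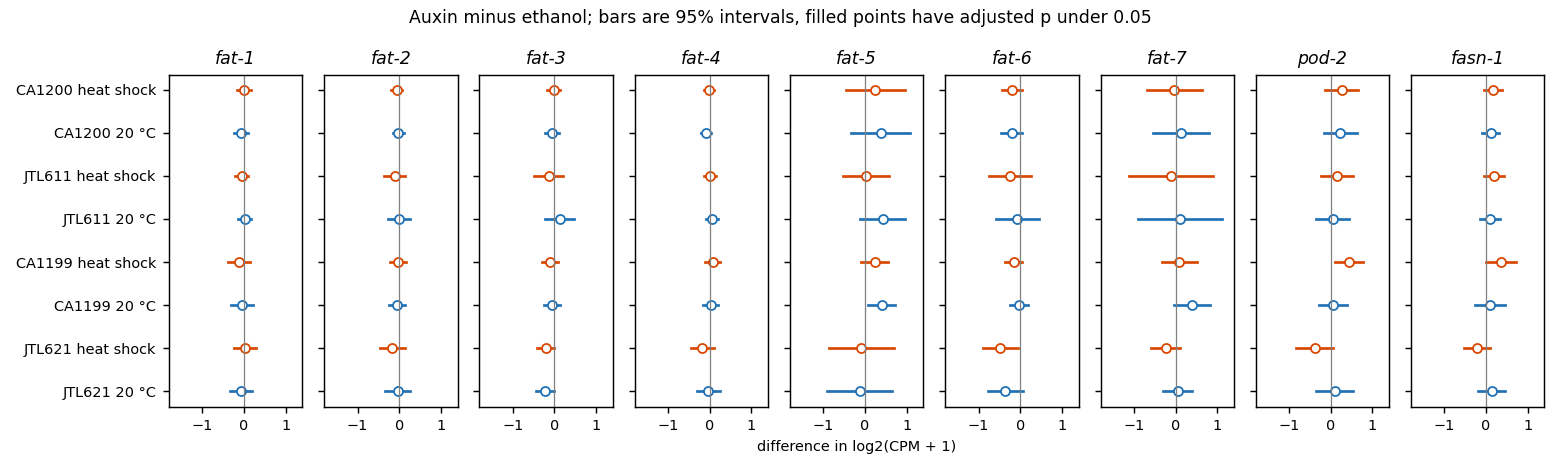
Auxin minus ethanol in log2(CPM + 1) for each gene and strain, with and without heat shock, with 95% intervals; filled points would have adjusted p under 0.05, and there are none. Intervals are widest for fat-7 in JTL611.

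Genes around this pathway were followed through lists. Of 13 regulators of desaturase transcription and membrane fluidity, scp-1, which encodes the partner that escorts the lipid regulator SBP-1, rose with heat in 7 of 8 comparisons. In CA1200 on ethanol it went from 47.4 to 321 CPM (2.73 ± 0.09, limma adjusted p = 1.83e-10), and in JTL611 on auxin it was at 48.5 CPM unheated and 46.9 CPM heated (-0.05 ± 0.08, limma adjusted p = 0.816). With heat, auxin lowered it in JTL611 by a log2 change of -1.87 ± 0.08 (limma adjusted p = 4.7e-08). The other regulators that passed in a single heat comparison were sbp-1, the SREBP homologue that activates fat genes, at -0.73 in CA1199 on ethanol (limma adjusted p = 0.0128), and nhr-80, a nuclear receptor that activates fat-6 and fat-7, at -0.55 in JTL621 on auxin (limma adjusted p = 0.0302). The remaining 10 passed in none of the 8: nhr-49, a nuclear receptor for fat-7, ranged from -0.18 to 0.12, and mdt-15, its Mediator partner, from -0.41 to 0.08. The log2 changes of daf-16 ran from -0.09 to 0.37 and those of hlh-30 from -0.46 to -0.03. Those of paqr-2 and iglr-2, which sense membrane rigidity, ran from -0.30 to 0.07 and from -0.34 to 0.07. For the remaining genes acdh-11, nhr-13, nhr-66 and nhr-86 they stayed between -0.35 and 0.33. In the average over strains and plates, 2 of the 13 regulators were higher and 5 lower, among them sbp-1 at -0.45 and nhr-80 at -0.32, where 27.6% of all genes were called higher and 29.4% lower.

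Elongation genes lengthen the chains, and 12 were listed, of which 11 were tested in CA1200. In CA1200, 3 were lower with heat on each plate. In JTL611, 1 was lower on ethanol and 5 on auxin, in CA1199 6 and 7, and in JTL621 4 and 8. On ethanol, 7.51%, 4.17%, 14.4% and 7.43% of all genes tested were called lower in CA1200, JTL611, CA1199 and JTL621. On auxin the shares were 9.86%, 5.4%, 12.5% and 11.3% in that order. The elongase genes elo-5 and elo-6, which make branched-chain fatty acids, were among the elongation genes called lower. In JTL621 on auxin elo-6 went from 276 to 94.2 CPM (-1.54 ± 0.14, limma adjusted p = 1.22e-05) and elo-5 from 228 to 81.3 CPM (-1.48 ± 0.10, limma adjusted p = 8.97e-07). The median of the list there was -0.59, against -0.01 for all genes. Of the 3 genes for electron supply to the desaturases, 0 passed in any of the 8 comparisons. Of 6 genes tested for acetyl-CoA, malonyl-CoA and NADPH supply, gspd-1, which makes NADPH, fell in 6 of 8, from 118 to 83.7 CPM in JTL621 on auxin (-0.48 ± 0.10, limma adjusted p = 0.00502).

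In the average over strains and plates, 8 of 11 elongation genes, 11 of 17 genes for triglyceride and phosphatidylcholine synthesis and 16 of 25 beta-oxidation genes were lower, with medians of -0.34, -0.18 and -0.30 against 0.03 for all genes. Of 18 acyl-CoA synthetase genes 4 were higher and 7 lower, of 7 lipase and fat storage genes 3 and 4, and of 8 lipid binding protein genes 1 and 3. All of these counts stand beside 27.6% of all genes called higher and 29.4% called lower.

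Markers of the tissues moved with heat as well. Of 10 intestinal markers 9 were lower in the average, with a median of -0.43, and their summed level ranged from 3166 to 6442 CPM in unheated and from 2204 to 3582 CPM in heated libraries. In CA1199 on ethanol it was 3520 to 5152 CPM unheated and 2373 to 2926 CPM heated. All 6 vitellogenin genes and 9 of 10 neuronal markers were lower, with medians of -0.46 and -0.48. All 6 pharynx markers and 9 of 10 body wall muscle markers were higher, with medians of 1.08 and 0.50. Germline markers had 1 higher and 1 lower of 11. Epidermal markers had 1 lower of the 4 tested, and the other listed epidermal markers were not tested. In this average 27.6% of all genes were called higher and 29.4% lower. None of the intestinal or epidermal markers listed in a strain was at 0 in a group. The part of intestinal signal in the falls of fat-7, fat-5, fat-4 and fasn-1 was not tested.

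Across the 48 libraries, each value taken relative to its strain mean, 31 of the 36 pairs among the 9 genes had a positive correlation, with a median r of 0.398. The libraries share groups, depth and strain tables, so these are descriptions. The highest were pod-2 with fasn-1 at 0.756, fat-5 with fat-7 at 0.726 and fat-1 with fat-2 at 0.699. The lowest was fat-6 with fasn-1 at -0.326. Relative to the group mean in place of the strain mean, 26 pairs were positive with a median r of 0.317, and the order differed: fat-6 with fat-7 at 0.716 and fat-5 with fat-6 at 0.709 came first, and pod-2 with fasn-1 was at 0.664. Relative to the strain mean, the median r of each of the 9 with the other genes lay between -0.0846 and 0.0153. Among 8587 genes averaging 5 CPM or more, the most similar to fat-7 over the 48 libraries were kynu-1 (r = 0.829) and pmt-2 (0.822), and pmt-2, a phosphocholine synthesis gene, was also first for fat-5 (0.816). For fat-4 they were K11H3.3 (0.872) and bckd-1B (0.853), and for fat-2 gta-1 (0.789) and gas-1 (0.737). For fat-1 they were ndua-13 (0.806) and rpl-11.2 (0.799), for fat-3 alh-12 (0.716) and F26H9.5 (0.704), and for fat-6 gln-3 (0.687) and F56H9.2 (0.681). For pod-2 they were the long genes let-805 (0.918) and srap-1 (0.910), and for fasn-1 mup-4 (0.945) and glh-1 (0.940).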

How the data were processed

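Polyadenylated RNA of whole worms was sequenced in 48 libraries, 3 per group. Per the submitters' processing notes, STAR, featureCounts and edgeR were used with WBcel235; their versions and roles are not given in the sources used here. The deposited values of each strain table are log2 CPM with a prior count of 2, normalised within that table by the authors. The authors' deposited table of auxin against ethanol holds log2 fold changes and p-values, which are quoted only as theirs, and likelihood ratio scores, deposited by the authors and not used here. The deposited log2 values were made linear by removing the table's offset, and 100% of values were whole reads within 0.05 read. Apart from limma-voom as an alternative, no count model was run on the recovered reads. In the main fit, limma 3.58.1 in R 4.3.3 was used on log2(CPM + 1), trend included. It took all 12 libraries of a strain (24 for strain pairs, 48 for averages), two-sided, for genes averaging 1 CPM or more. Benjamini-Hochberg adjustment was over 11878, 12010, 12184 and 12228 genes in CA1200, JTL611, CA1199 and JTL621, with calls at adjusted p under 0.05. The fits, the block and the length correction were run on simulated data with known fold changes and a replicate effect. Those data held no shift by gene length, so they could not test what the length correction removes. Alternatives were a pseudocount of 0.5, no filter, the deposited values, limma-voom on the recovered reads, quantile normalisation, a replicate block, only the libraries compared, each library left out, and, added after seeing the data, a gene length correction, leaving out the libraries low in long genes, and the averages. Replicate numbers come from the labels. Same-numbered libraries deviated together (r over 0.1 in all 3 pairs) in all 4 comparisons of CA1200, 3 of JTL611, 1 of CA1199 and 2 of JTL621. The labels do not say that replicates came from separate cultures, so p-values measure only the spread between these samples. The genes and lists were chosen with earlier results of these data known; named genes are all 9 and, from the lists, every regulator and up to 4 called genes by smallest adjusted p. Listed symbols ctp-1, opt-2 and bus-8 were not matched. Intervals cover 95%. Gene positions are from Ensembl release 115.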

Additional observations from a re-analysis of the deposited data

Results flagged for a closer look

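Between the germline TIR1 strains and the soma TIR1 strains, the response to heat differed by the test of the difference itself for 2 of the 9 genes, in a comparison added after seeing the data. For fat-2 the difference was -0.30 on the log2 scale and for fat-4 it was -0.27, in each case more negative in the germline TIR1 strains. In fat-4 the falls of CA1199 were -0.34 and -0.30, against -0.09 and -0.02 in CA1200. The direct comparison of these 2 strains did not call fat-4, and fat-4 passed in no heat comparison of JTL621 or JTL611. Transgene and sample number block cannot be told apart in the pooled difference. Both calls held in 56 of 56 alternatives. No formal test for an outlying sample was applied to single groups, which hold 3 libraries each.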

How the results depend on the processing

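Of 6651 recomputed changes of single genes, 6575 kept their direction or stayed without a call, 44 lost a call, 32 gained one and 0 reversed. With the replicate block, 2 genes instead of 1 were called for heat on ethanol in CA1200 and in JTL611, 1 instead of 0 for heat on auxin in CA1200, 1 instead of 0 for auxin with heat averaged over strains, and 5 instead of 2 for the difference between germline and soma TIR1 strains; it moved no other count of calls by over 1.5 times. With only the libraries compared, the counts for heat on ethanol were 0 in CA1200, 0 in JTL611 and 2 in CA1199, and for heat on auxin 1 in CA1200, 5 in CA1199 and 1 in JTL621. Quantile normalisation gave 1 for heat on auxin in CA1200. Gene length correction gave 2 for heat on ethanol and 3 for heat on auxin in CA1200, and 1 for heat on auxin in JTL621. Leaving out 1 library gave 0 to 1 for heat on either plate in CA1200, 1 to 2 on ethanol and 0 on auxin in JTL611, 2 to 4 on ethanol and 2 on auxin in CA1199, 2 to 4 on auxin in JTL621, 5 to 6 for heat averaged over strains and plates, and 2 to 3 for the difference between germline and soma TIR1 strains. The cause was not tested. Over all genes, heat on ethanol in JTL611 called 779 genes, 1261 with the block and 283 with only the libraries compared, and heat on auxin 917, with 1471 under each. With only the libraries compared, CA1199 went from 2231 to 1453 on ethanol and from 1994 to 3301 on auxin, and JTL621 from 1219 to 2659 and from 2142 to 587. The difference between germline and soma TIR1 strains went from 686 to 1170 with the block and to 1194 without the libraries low in long genes. Quantile normalisation moved the split of higher and lower calls from 480 and 1751 to 684 and 1335 for heat on ethanol in CA1199, from 467 and 1527 to 565 and 1111 on auxin, and from 226 and 460 to 388 and 497 for that difference. A count of 3 reads corresponds to 0.127 to 0.478 CPM across libraries, and fat-5, the gene nearest to it, had a median coefficient of variation of 28.2%.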
